A study of Homo sapiens with 9 samples.

Results

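The stretch of the short arm of chromosome 9 that holds CDKN2A was read in 9 lists of accessible regions from K562 cells. Every list row whose centre lay on chromosome 9 from 18 to 32 Mb (GRCh37) was taken, 1417 rows in all out of 2164004 on chromosomes 1 to 22 and X. The 5 named genes were CDKN2A, CDKN2B, MTAP, IFNB1 and IFNE. The rows were counted in 250 kb windows and set against the rest of 9p, which is the arm up to 38.5 Mb without these 14 Mb.

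K562 is an erythroleukaemia cell line. The assay was ATAC-seq, in which the Tn5 transposase cuts open chromatin, on 50000 cells a replicate. The 3 groups were the parental line with no STAG2 mutation (wild type), 1 line heterozygous for STAG2 R614* and 1 line homozygous for it. STAG2 encodes a cohesin subunit. Each group had 3 replicates, each mutant genotype rests on 1 line, and the homozygous line grew attached and was detached with trypsin, so genotype, line and growth form cannot be told apart.

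CDKN2A encodes p16INK4a, which inhibits CDK4 and CDK6 and so keeps RB1 active, and, from another first exon, ARF, which restrains MDM2 and so protects p53. CDKN2B encodes the related inhibitor p15INK4b, and MTAP encodes the enzyme that salvages methionine and adenine from methylthioadenosine. Between these genes and the tip of the arm lies the type I interferon cluster, most of whose genes are silent until a cell senses infection. Loss of this segment is common in leukaemia, and K562 is known to lack CDKN2A on all copies of the chromosome.

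A row is an interval that a peak caller kept, with a −log10 p. The lists hold neither reads nor coverage outside rows, so a segment lost from the genome and a segment present but closed cannot be told apart from them. The lists ran from 181407 rows (homozygous replicate 1) to 319697 rows (homozygous replicate 3), and the read depth behind them is unknown. They were not all independent. Wild type replicate 3 and heterozygous replicate 1 shared 46.0% of the shorter list's intervals to the base, and 60.6% within 18 to 32 Mb, while wild type replicates 1 and 2 shared 23.3% and 26.8%. The other 34 pairs shared 0.223% to 1.17%. Tests were therefore repeated with each of these pairs of lists as 1 source, which leaves 7 sources. Nothing in the labels says that replicates were separate cultures, so p-values measure only the spread between these samples. Start sites of the K562 marker genes held a row in all 9 lists for 6 of 8 genes, with GATA1 in 8 and KLF1 in 4. CD3E, PAX5 and CDH1 had none, whereas COL1A1, COL1A2 and EPCAM had one in all 9.

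Rows fell away between the FOCAD gene and 25 Mb in every library. Pooled over the 9 lists, each window scaled to its library's rest of 9p, the longest run of windows at or under 25% of the median window went from 20.75 to 25 Mb (chr9:20750001-25000000), 4.25 Mb or 17 windows. Wild type libraries held 7, 14 and 16 rows there, heterozygous libraries 11, 4 and 7, and homozygous libraries 6, 6 and 17. As a share of the density in the rest of 9p, this was 5.05%, 7.15% and 8.77% in the wild type, 7.04%, 4.43% and 6.15% in the heterozygous and 4.84%, 4.73% and 7.14% in the homozygous libraries. The genotypes overlapped. Their means were 6.99% ± 1.86 (SD, n = 3), 5.88% ± 1.32 and 5.57% ± 1.36 (exact permutation test over 280 assignments, two-sided, p = 0.468).

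**Figure D1:**
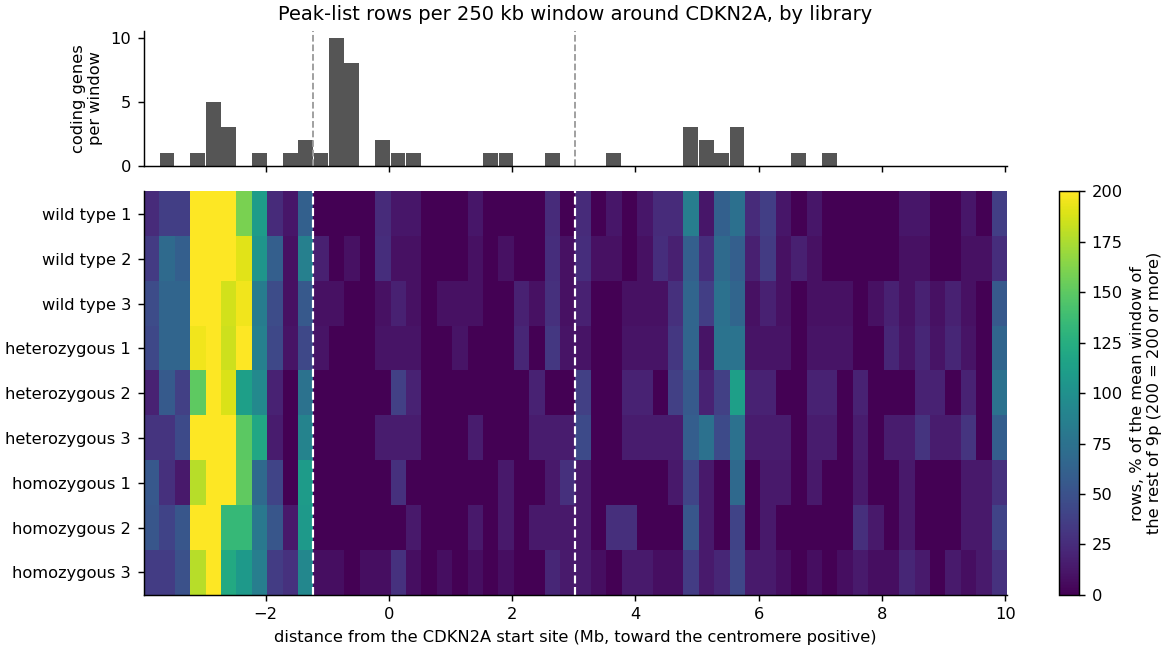
Rows per 250 kb window in each library (colour, percent of that library's mean window in the rest of 9p) against the distance from the CDKN2A start site in Mb, with the number of coding genes that have a start in each window above. Between the dashed lines, which mark 20.75 and 25 Mb, all 9 libraries are dark across the gene-rich windows left of CDKN2A as well as the gene-poor ones right of it.

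On the left the last dense window held the start of FOCAD, a gene for a focal adhesion protein. The last row seen in all 9 libraries, chr9:20692359-20693517, lay in FOCAD, 8679 bp from its start. The window from 20.5 to 20.75 Mb held 5, 10 and 6 rows in the wild type, 4, 4 and 6 in the heterozygous and 8, 8 and 13 in the homozygous libraries, and the next window held at most 2 in any library. FOCAD's start carried a row in all 9 libraries, with a −log10 p of 13.1 to 26.1. The rest of FOCAD, which runs past 20.75 Mb, fell on the sparse side.

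On the right the density rose again in steps. The window from 25 to 25.25 Mb held 1 to 3 rows in every library, just above the limit of 25%. The next 6 windows, to 26.75 Mb, were under it again. The first row to the right that was seen in all 9 libraries and lay in unique sequence was chr9:26892084-26893125, at the start of CAAP1, a gene linked to caspase activity. Between it and the FOCAD row lay 6.20 Mb. When rows seen in 5 or more libraries were used in place of all 9, the right bound depended on how 1 row was treated. chr9:24959765-24960276 was seen in 5 libraries, and 49.7% of it was repeated sequence, meaning stretches of 24 bases that occur at 10 or more places in GRCh37, just under the 50% set as the limit for calling a row repeated. If it counts as unique, the gap is 4.27 Mb, and with the limit at 45% or 40% it is 6.20 Mb.

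The window rule did not single out this segment within each library. In 6 of 9 libraries the longest sparse run was another one, from 27.75 or 28.25 to 31.75 Mb, which holds 1 coding gene, LINGO2, a neuronal membrane protein. Heterozygous replicate 3 gave 20.75 to 25 Mb, homozygous replicate 2 gave 20.75 to 25.5 Mb, and homozygous replicate 3 gave 22.25 to 26.75 Mb. The run of homozygous replicate 3 begins past all 5 named genes. The longest run was 3.67 Mb ± 0.289 (SD, n = 3) in the wild type, 4.08 Mb ± 0.144 in the heterozygous and 4.42 Mb ± 0.382 in the homozygous libraries (exact permutation test, p = 0.0786), which compares different stretches rather than 1 bound. Without wild type replicate 3 that p was 0.0357, and without homozygous replicate 1 it was 0.0143. A fit of 2 change points to the row centres put the end of the dense part at 19.93 to 20.1 Mb in wild type and heterozygous libraries and at 20.69 to 20.71 Mb in homozygous libraries. It put the other point at 31.8 to 32 Mb in all of them, so that it took in the LINGO2 stretch too.

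Gene content set the 2 stretches apart. Across chromosomes 1 to 22 and X, 11 runs of at least 2 Mb had no window above 25% of the genome's median window. The run around CDKN2A, from 20.75 to 26.75 Mb by this genome-wide measure, was the longest at 6 Mb and held 26 coding genes, counting any annotated coding start. Of these genes, 16 belong to the type I interferon cluster, within 405 kb. The other 10 runs were at most 4.5 Mb long and held 0 to 2 coding genes each. The windows of the 20.75 to 25 Mb segment averaged 2.99% of the genome's median window, a low value that the choice of the segment by its row counts fixed. Of its 17 windows, 9 held a coding start.

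**Figure D2:**
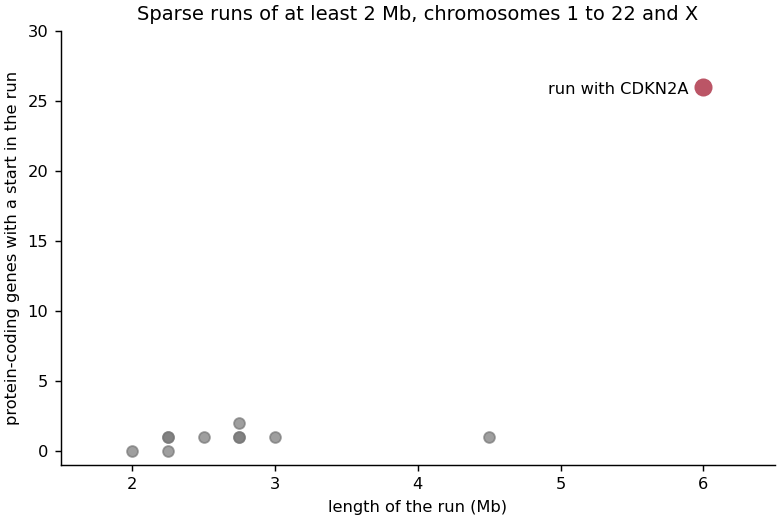
Length of each of the 11 sparse runs of at least 2 Mb in Mb against the number of protein-coding genes with a start in it, pooled over the 9 libraries (points that coincide overlie each other). The run with CDKN2A, in red, stands at 6 Mb and 26 genes, and the others hold at most 2 genes.

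None of the segment's genes had a row at a start site. Of 24 coding genes whose canonical start lay in the segment, 0 had a row within 1 kb of any annotated coding start in any of the 9 libraries, and these genes have 46 such starts. Genome-wide, 10.7% of 19748 coding genes had none in any library and 65.4% had one in all 9. The segment was chosen by low row counts, which include rows at starts, so a lack of them there was largely fixed. The same holds where its genes are compared below with genes of similar CpG content. The 11 genes between 18 Mb and the segment all had a row at a start in some library, and 8 of them in all 9. Among these were RPS6, a ribosomal protein, with a −log10 p of 7.06 to 15.3, and ACER2, an alkaline ceramidase, with 13.1 to 35.6. MLLT3, a partner gene of MLL in leukaemia fusions, had one in homozygous replicates 1 and 3 only, and SLC24A2, a sodium, calcium and potassium exchanger, in the 6 wild type and heterozygous libraries only. The SLC24A2 rows had a −log10 p of only 4.26 to 4.99, and those 6 lists were not all independent. The share of all coding genes that split in these ways was not counted, so neither gene is read as a genotype difference.

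To the right, 4 of 11 genes had a row at a start in all 9 libraries. They were CAAP1, with a −log10 p of 3.69 to 8.77, PLAA, with 3.57 to 12.8, IFT74, with 6.06 to 12.8, and C9orf72, with 8.23 to 12.4. MOB3B, a kinase activator, had one in 8 libraries, all but homozygous replicate 2. TUSC1, the nearest gene to the right bound, had none, and neither did EQTN, IFNK, LINGO2, LRRC19 and TEK. The rest of 9p had 154 coding genes, of which 100 had a row at a start in all 9 libraries and 19 in none.

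**Figure D3:**
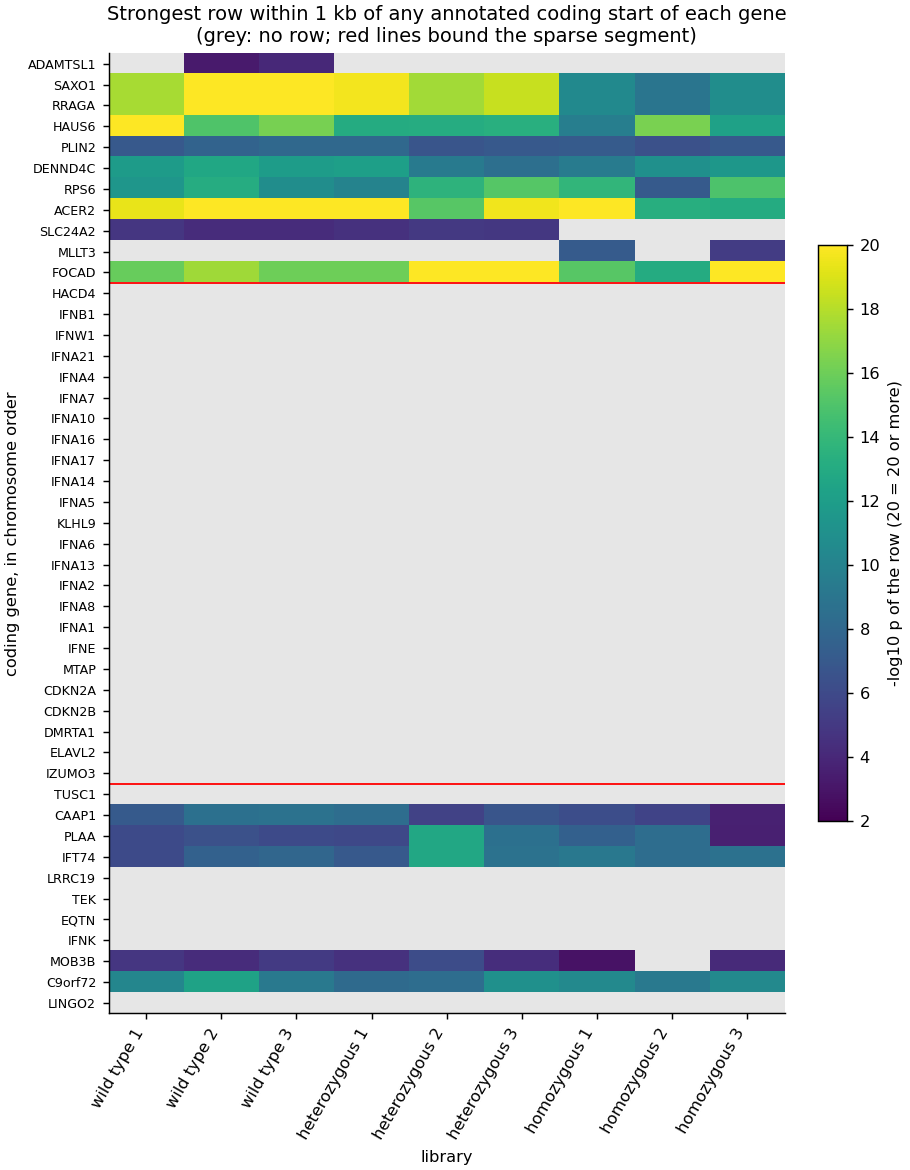
The strongest row within 1 kb of any annotated coding start of each coding gene from 18 to 32 Mb (colour, −log10 p, capped at 20), genes in chromosome order down the page and libraries across, grey where there was no row. The 24 genes between the red lines, HACD4 to IZUMO3, are grey in all 9 libraries, and so is TUSC1, the first gene below them. FOCAD just above the lines, and CAAP1, PLAA and IFT74 below TUSC1, have a row in all 9.

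CDKN2A (chr9, minus strand) has its p16INK4a start at 21974856 and its ARF start at 21994391. Neither had a row within 1 kb in any library. Within 10 kb of the gene body, wild type libraries held 1, 2 and 0 rows, heterozygous libraries 0, 0 and 0, and homozygous libraries 0, 0 and 1. The nearest row to the p16INK4a start was 5.78 kb away at the least, in wild type replicate 2, 43.5 kb away at the median and 379 kb away at the most, in homozygous replicate 2. The 250 bases before each start are shown, read from GRCh37 in the direction of transcription, because genes with such CpG-rich promoters mostly had a row. Capitals mark the GC box, GGGCGG on either strand, the letters bound by SP1.
CDKN2A p16: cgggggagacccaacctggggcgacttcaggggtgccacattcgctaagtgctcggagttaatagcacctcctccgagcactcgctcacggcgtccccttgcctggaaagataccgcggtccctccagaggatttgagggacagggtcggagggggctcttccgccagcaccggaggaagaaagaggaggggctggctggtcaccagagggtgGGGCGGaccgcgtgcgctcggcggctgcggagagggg
CDKN2A ARF: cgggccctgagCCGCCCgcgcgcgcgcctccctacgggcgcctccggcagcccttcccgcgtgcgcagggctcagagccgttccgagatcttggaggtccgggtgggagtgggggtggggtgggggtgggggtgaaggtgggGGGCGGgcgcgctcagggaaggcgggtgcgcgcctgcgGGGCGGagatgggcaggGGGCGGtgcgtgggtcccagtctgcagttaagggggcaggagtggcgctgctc
The first sequence holds 20 CpG and 1 GC box, and the second 27 CpG and 4 GC boxes. Among 9027 coding genes with at least 20 CpG in these 250 bases, 3.15% had no row at a start in any library, and CDKN2A was one of them.

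CDKN2B (minus strand, start at 22009304) had no row within 1 kb of its start in any library. Within 10 kb of the gene, wild type libraries held 0, 0 and 1 rows, heterozygous libraries 0, 0 and 0, and homozygous libraries 1, 0 and 2. The nearest was 5.54 kb from the start, in homozygous replicate 3, and the median distance was 49.3 kb. MTAP (plus strand, start at 21802635) held 1 row in each of the 3 wild type libraries, 1, 0 and 1 in heterozygous and 0 in each of the 3 homozygous libraries. These MTAP rows lay at least 92.9 kb from its canonical start, in the distal part of the gene, and all were in repeated sequence. The MTAP counts rest on single rows with a −log10 p of at most 4.54. Near CDKN2B the strongest row had 8.81, in homozygous replicate 1.
CDKN2B: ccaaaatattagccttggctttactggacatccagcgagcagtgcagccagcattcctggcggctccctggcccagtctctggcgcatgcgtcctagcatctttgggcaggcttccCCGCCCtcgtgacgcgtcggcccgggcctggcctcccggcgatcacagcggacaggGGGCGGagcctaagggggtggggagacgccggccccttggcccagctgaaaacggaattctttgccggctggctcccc
MTAP: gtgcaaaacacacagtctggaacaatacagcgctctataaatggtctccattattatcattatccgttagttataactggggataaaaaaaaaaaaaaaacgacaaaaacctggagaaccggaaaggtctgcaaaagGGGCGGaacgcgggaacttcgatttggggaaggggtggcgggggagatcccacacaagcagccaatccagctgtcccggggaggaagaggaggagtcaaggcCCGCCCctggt
Both stretches hold 2 GC boxes, with 18 CpG before CDKN2B and 11 before MTAP. The other genes of the segment with 10 to 19 CpG were HACD4, which takes part in very long chain fatty acid synthesis, KLHL9, an adaptor of a ubiquitin ligase, DMRTA1, a DM-domain factor, and ELAVL2, a neuronal RNA-binding protein. All 6 of these genes lacked a row at a start. Of 4836 genes in that CpG class, 5.62% lacked one.

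The 16 type I interferon genes of the segment lie between 21077103 and 21482312, a span of 405 kb. In 7 of 9 libraries that span held 0 rows. Wild type replicate 3 held 1 row with a −log10 p of 3.28, near IFNW1, and homozygous replicate 3 held 1 with 3.20, near IFNA17. IFNB1, interferon beta (minus strand, start at 21077941), had 0 rows within 10 kb in all 9 libraries, and the nearest row to its start was 65.9 kb away at the least and 366 kb away at the median. IFNE, interferon epsilon of the reproductive tract (minus strand, start at 21482312), had 1 row within 10 kb, in wild type replicate 2, 7.12 kb from its start.
IFNB1: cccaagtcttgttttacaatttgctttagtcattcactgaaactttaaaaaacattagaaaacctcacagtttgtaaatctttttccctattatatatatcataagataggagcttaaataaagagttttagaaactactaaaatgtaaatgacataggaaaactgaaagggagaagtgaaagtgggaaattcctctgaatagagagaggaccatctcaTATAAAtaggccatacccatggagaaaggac
In the IFNB1 sequence the capitals mark a TATA box, TATAAA searched on both strands. The interferon promoters are of another kind, since the one of IFNB1 has 0 CpG and 0 of the 16 interferon promoters holds a GC box, against 59.0% of all 19748 promoters of this length and 6 of the segment's 24. TATAAA stood in 2 of the 16 interferon promoters and in 9.37% of all promoters. In the class with 0 to 4 CpG, to which IFNB1, IFNE and the other interferon genes belong, 30.8% of 3775 genes had no row at a start, against the 3.15% and 5.62% of the classes of CDKN2A and MTAP.

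The noncoding genes of the segment were also nearly bare. CDKN2B-AS1, the antisense RNA also called ANRIL, runs from beside the ARF start past CDKN2B and held 1 row in wild type replicate 3, 1 in homozygous replicate 1 and 3 in homozygous replicate 3. CDKN2A-DT and LINC01239 held 0 rows in all 9 libraries. MIR31HG, the host gene of a microRNA often lost with CDKN2A, held 1 row in wild type replicate 2 and 1 in homozygous replicate 3. The hairpin of that microRNA, chr9:21512114-21512184, held none. Its mature sequence is given from RefSeq with the seed, bases 2 to 8, in capitals.
miR-31-5p: aGGCAAGAugcuggcauagcu

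The nearest genes outside the segment with a row at a start in all 9 libraries were FOCAD on the left and CAAP1 on the right. The promoter of FOCAD is shown for comparison, again with GC boxes in capitals.
FOCAD: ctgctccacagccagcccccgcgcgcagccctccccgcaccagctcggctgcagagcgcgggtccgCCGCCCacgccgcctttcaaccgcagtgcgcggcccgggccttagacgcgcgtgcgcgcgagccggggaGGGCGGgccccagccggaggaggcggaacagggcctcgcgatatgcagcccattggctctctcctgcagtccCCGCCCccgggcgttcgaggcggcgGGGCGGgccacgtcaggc
FOCAD's promoter has 35 CpG and 4 GC boxes.

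The other genes of the same pathways, at other places in the genome, were in the lists, where 65.4% of all coding genes, and 85.1% of those with at least 20 CpG before the start, had a row at a start in all 9 libraries. The 5 CDK inhibitors of other loci (CDKN1A, CDKN1B, CDKN1C, CDKN2C and CDKN2D) had a row at a start in all 9 libraries. So did 8 of 9 genes of the p16 and ARF pathway, and CCND1, cyclin D1, had one in 8. Of 10 genes around MTAP's reaction, among them PRMT5, MAT2A and SRM, 9 had one in all 9 libraries and MRI1 in 7. All 11 genes of interferon receptors and signalling, among them IFNAR1 and JAK1, had one in all 9. Interferon genes outside the segment were sparse too. IFNK, which lies right of the segment on 9p and is counted above, had no row at a start in any library. Neither did IFNL1 and IFNL2, while IFNL3 had one in 1 and IFNG in 6. On distal 9p, 11 of 14 genes had a row in all 9 libraries, and the others were BNC2 in 3, PDCD1LG2 in 1 and VLDLR in 7.

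The few rows left in the segment were mostly in repeated sequence. Merged over the 9 lists they made 38 regions, of which 17 were in 1 library, 4 in 5 or more and 0 in all 9. In the rest of 9p, 9.54% of 2548 regions were in all 9 and 22.5% in 5 or more. A region was called repeated where at least 50% of its stretches of 24 bases were repeated in this sense. This held for 27 of 38 regions of the segment (71.1%), for 11.9% in the rest of 9p and for 10.9% from 18 to 20.75 Mb. The segment's sequence as a whole was no richer in repeats, at 11.3% against 12.6% in the rest of 9p. By library, 66.7% to 100% of the segment's rows were repeated, and 8.08% to 12.5% of rows in the rest of 9p.

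**Figure D4:**
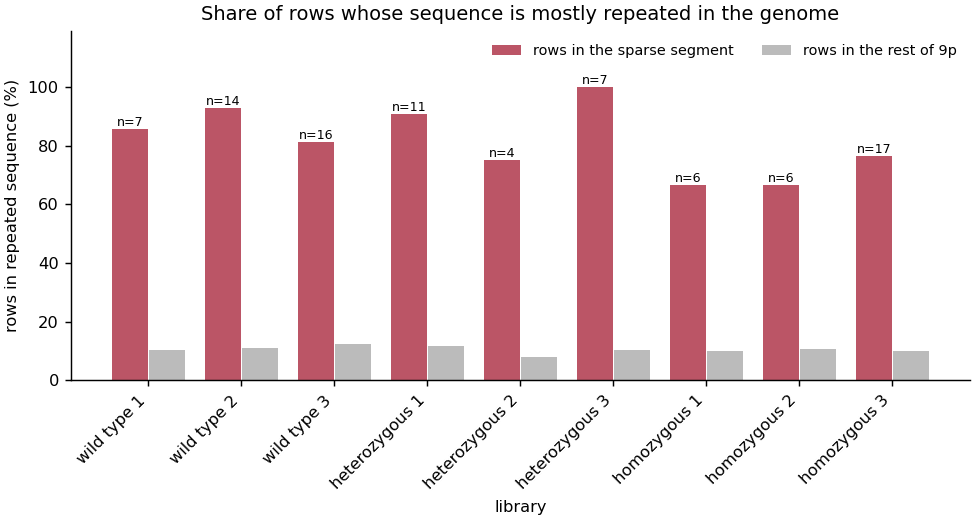
Percent of rows in repeated sequence in each library, for the sparse segment (red, with the number of rows) and the rest of 9p (grey). In every library the red bar is at or above 66.7% and the grey bar at or below 12.5%, on 4 to 17 rows in the segment.

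Such a share was not particular to the CDKN2A segment. It was 77.8% of 18 regions from 25 to 26.75 Mb and 67.5% of 40 regions from 27.75 to 31.75 Mb, in the other sparse stretches. Up to the first region seen in 5 or more libraries, a stretch that covers all 5 named genes, there were 16 regions, 11 of them in 1 library and none in more than 3. The most widespread rows lay beyond CDKN2B. chr9:22225673-22226205 was in 8 lists from 6 sources, with a −log10 p of 3.79, 4.29 and 16.7 in the wild type, 17.5, 11.4 and 11.3 in the heterozygous and 5.08 and 6.28 in homozygous replicates 1 and 3. It was missing in homozygous replicate 2, and 78.6% of it was repeated. chr9:22353884-22354930 was also in 8 lists, missing in homozygous replicate 1, and 82.3% repeated.

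The strongest row of the segment without repeated sequence is shown as the 300 bases at its centre, chr9:22081486-22081785 (plus strand), in lower case because no base lies in a 24-base stretch that occurs at 10 or more places.
row in 1 list: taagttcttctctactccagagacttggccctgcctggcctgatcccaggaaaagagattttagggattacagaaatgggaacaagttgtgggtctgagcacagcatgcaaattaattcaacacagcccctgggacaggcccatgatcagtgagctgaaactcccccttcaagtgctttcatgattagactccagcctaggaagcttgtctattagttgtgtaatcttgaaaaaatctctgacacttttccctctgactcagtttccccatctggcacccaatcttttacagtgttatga
This row lies in CDKN2B-AS1, and only homozygous replicate 3 had it, with a −log10 p of 11.1. A row nearby, chr9:22018296-22018813, was in wild type replicate 3 and homozygous replicates 1 and 3, with a −log10 p of up to 8.81 and 35.4% repeated. No such row of mainly unique sequence was in more than 5 of the 9 lists.

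Strong rows were few in the segment, which follows in large part from its choice by low row counts in the same lists. Of the 50000 strongest rows of each library, merged, 7 regions lay in the segment, 1.65 per Mb, with none in 5 or more libraries. The rest of 9p had 20.9 per Mb, 103 of them in all 9 libraries, and 18 to 20.75 Mb had 22.5 per Mb.

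Right of the segment the homozygous libraries held fewer rows than the others, relative to the rest of 9p. From 25 to 32 Mb the density was 17.5%, 16.4% and 19.0% of the rest of 9p in the wild type, 19.0%, 20.2% and 22.4% in the heterozygous and 9.80%, 11.0% and 12.8% in the homozygous libraries. All 3 homozygous libraries were below all 6 others. Homozygous minus wild type was −6.45 percentage points, and homozygous minus heterozygous was −9.36. Across the 3 genotypes p was 0.00357, the smallest the test can give (exact permutation test over 280 assignments). Adjusted over the 4 density and length results by Benjamini-Hochberg, this p was 0.0143. Homozygous against wild type alone gave p = 0.1, the smallest that 3 libraries against 3 can give (exact permutation test). The reference moved with genotype too, since the rest of 9p held 42.5% of the genome's mean window in the wild type, 36.7% in the heterozygous and 46.2% in the homozygous libraries (exact permutation test, p = 0.00714; over the 7 sources, p = 0.0857). Set against the genome's mean window instead, a comparison added after seeing the data, the density right of the segment was 7.49% ± 0.509 (SD, n = 3) in the wild type, 7.54% ± 1.19 in the heterozygous and 5.19% ± 1.02 in the homozygous libraries, and the call was lost (exact permutation test, p = 0.075; over the 7 sources, p = 0.0857). Over the 7 sources and relative to the rest of 9p, homozygous minus the others was −8.46 points (exact permutation test, p = 0.0286, the smallest it can give). Without heterozygous replicate 2 the pooled rule marked the LINGO2 stretch as the longest. Homozygous minus wild type for what then lay right of it was −7.50 points (exact permutation test across the 3 genotypes, p = 0.0714).

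Of 3 stretches compared right of the segment, the difference was largest in the 1 Mb that holds CAAP1, TEK and C9orf72. From 26.75 to 27.75 Mb, wild type libraries stood at 57.7% ± 3.19 (SD, n = 3) of the rest of 9p, heterozygous at 59.0% ± 3.86 and homozygous at 28.7% ± 2.04 (exact permutation test, p = 0.025; over the 7 sources, p = 0.0286). This stretch was chosen after its values were seen. From 25 to 26.75 Mb the means were 12.8%, 14.0% and 7.56% (exact permutation test, p = 0.0429; over the 7 sources, p = 0.0571), and from 27.75 to 31.75 Mb they were 8.39%, 10.9% and 7.08% (p = 0.111). Across the whole genome, windows with no coding start held 98.6% ± 4.38 (SD, n = 3) of the mean window in the wild type, 87.9% ± 5.97 in the heterozygous and 77.4% ± 4.26 in the homozygous libraries (exact permutation test, p = 0.00714; over the 7 sources, p = 0.0571). The part of this in the difference right of the segment was not tested.

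**Figure D5:**
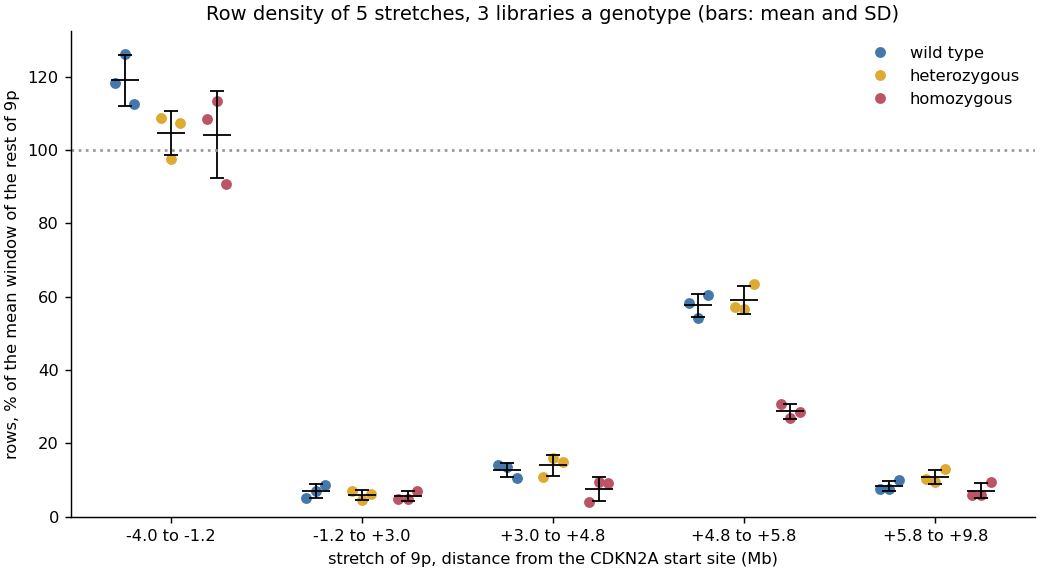
Rows as percent of the mean window of the rest of 9p in 5 stretches, placed by their distance in Mb from the CDKN2A start site, with 1 point a library and the mean and SD of each genotype. The stretch with CDKN2A is under 9% in all 9 libraries, and in the stretch at +4.8 to +5.8 Mb the homozygous libraries sit between 26.8% and 30.9%, below the 6 others.

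Left of the segment, from 18 to 20.75 Mb, the density was 118%, 126% and 113% of the rest of 9p in the wild type, 109%, 97.7% and 107% in the heterozygous and 109%, 113% and 90.8% in the homozygous libraries (exact permutation test, p = 0.171). Relative to the genome's mean window the means were 50.6%, 38.6% and 47.9% (exact permutation test, p = 0.0214; over the 7 sources, p = 0.4). Without heterozygous replicate 2, when the part left of the LINGO2 stretch was compared, p was 0.00714.

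Window by window, homozygous and wild type libraries did not overlap in 13 of the 56 windows, counting rows per 100000 of the list. They were higher in homozygous libraries in 5, or 8.93%, against 27.1% of the genome's windows, and lower in 8, or 14.3%, against 22.2%. Both shares were below the background. Many of the 56 windows held few rows, so libraries often tied and could less often part. Low shares, here and in the window comparisons that follow, are therefore not read as a result. Heterozygous and wild type libraries did not overlap in 6 windows, 3 higher in heterozygous (5.36%, against 8.33% of the genome's windows) and 3 lower (5.36%, against 11.3%). Homozygous libraries were above heterozygous ones in 8 windows (14.3%, against 25.3%) and below them in 4 (7.14%, against 16.2%). Without homozygous replicate 1 the count was 20 windows, and without homozygous replicate 3 it was 22. In the segment homozygous and wild type libraries did not overlap in 2 of its 17 windows, by rows per 100000 of the list. The one from 21.75 Mb, with MTAP and CDKN2A, held 2, 3 and 1 rows in wild type and 0, 0 and 1 in homozygous libraries, and the one from 24.75 Mb held 0, 1 and 1 against 2, 1 and 2. Homozygous libraries were above heterozygous ones in 2 windows of the segment, with 0, 0 and 0 rows in heterozygous and 1, 1 and 1 in homozygous libraries from 23.75 Mb, and 1, 0 and 1 against 2, 1 and 2 from 24.75 Mb. These windows held at most 3 rows a library. From 21.75 and from 24.75 Mb the raw counts met at 1 row, so the libraries parted there only through division by list length.

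Among the 50000 strongest rows, 88 regions from 18 to 32 Mb were present in a wild type or homozygous library. 0 were in all 3 homozygous and no wild type libraries, against 2.7% genome-wide, and 4 were in all 3 wild type and no homozygous libraries, or 4.55%, against 3.46% genome-wide. None of the 4 was in the segment. They lay at chr9:31807520-31808645 in intergenic sequence, chr9:27303151-27303687, 6270 bp from the start of EQTN, a sperm acrosome gene, chr9:19123721-19124413 in PLIN2, which coats lipid droplets, and chr9:18254949-18255718 in ADAMTSL1. All 4 had a row in at least 1 homozygous full list. Leaving out wild type replicate 1 raised the count to 7 and leaving out wild type replicate 3 to 8. It was 9 with homozygous replicate 1 left out and 7 with homozygous replicate 2 left out. With heterozygous set against wild type, 2 of 75 regions were in heterozygous only (2.67%, against 0.393%) and 0 in wild type only (against 0.504%). Between homozygous and heterozygous libraries 3 of 94 were in homozygous only (3.19%, against 3.16%) and 8 in heterozygous only (8.51%, against 3.41%). One of those 8 was in the segment, the repeated row at chr9:22225694-22226205.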

How the data were processed

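Per the submitters' processing notes, reads were handled with cutadapt, Bowtie2 2.2.9, Picard and MACS2 2.1.0 on hg19 (GRCh37). Per the labels, they were 100 bp single-end reads. The deposited files are 9 narrowPeak lists, 1 a library. Each row of the authors' lists gives a fold (ratio) over background, a −log10 p, a −log10 q, a score and a summit offset (other). The fold, p and q are the authors' own. The lists give no read counts, so no count test was made. Rows on chromosome Y were left out.

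Rows were counted by their centre in 250 kb windows and divided by the mean window of the rest of 9p in the same library, which takes out list length but itself differed between genotypes. Genotypes were compared with exact permutation tests over 280 assignments, two-sided. These tests, and those of the replicate block, compare all 3 genotypes at once. That holds also where their p stands beside a homozygous minus wild type difference. An exact permutation test of 3 libraries against 3 cannot go below p = 0.1. Regions were merged at 1 bp of overlap. Gene starts come from GENCODE 44 lifted to GRCh37. Repeats were found by counting 24-base words in the genome, sampled every 50 bases for whole stretches. That step was chosen after seeing the data. Named genes were the 5 members, every coding gene of the segment, the 3 nearest on each side and the pathway members without a row. The members and the lists were chosen with earlier results of these data known. Alternatives were other windows and limits, stronger rows, summits, leaving out each library and a replicate block. Scripts were tested on simulated data. Python 3.11.15, numpy 2.4.6, pandas 2.3.3 and scipy 1.17.1 were used. Some items are not reported here.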

Additional observations from a re-analysis of the deposited data

How the results depend on the processing

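The bounds moved with the rule. With 100 kb windows the shared segment was shorter, from 22.4 to 24.5 Mb. At a limit of 10% it ran from 22.5 to 24.5 Mb. Both stretches began past CDKN2A, CDKN2B, MTAP, IFNB1 and IFNE, so they held none of these genes. With the 100000 strongest rows, or rows with a −log10 q of at least 2, the LINGO2 stretch was the longest. The cause was not tested. The difference in longest run, homozygous minus wild type, was 0.75 Mb and turned to −0.9 Mb with 100 kb windows, −0.333 Mb with 500 kb windows, −0.25 Mb at a limit of 10% and −1.58 Mb in both sets of stronger rows. It ranged from 0.583 to 0.958 Mb when 1 library was left out. The residual density difference of −1.42 points ranged from −2.52 to −0.528 without 1 library. With the bounds kept, an alternative chosen after seeing the data, it turned to 4.31 points in the 100000 and 2.46 points in the 50000 strongest rows. The difference on the left, −14.8 points, ranged from −19.3 to −8.08 without 1 library. It turned to 0.828 points in the 100000 strongest rows and 0.643 points in rows with a −log10 q of at least 2, both with other bounds, and to 14.3 and 15.4 points in the 100000 and 50000 strongest rows with the bounds kept.

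On the right, −6.45 points ranged from −7.50 to −5.76 without 1 library. It turned to 1.94 and 3.23 points in the 2 sets of stronger rows, where the stretch compared was another. With the bounds kept it was −7.46 points in the 100000 strongest rows (exact permutation test across the 3 genotypes, p = 0.00714). In the 50000 strongest it was −8.04 points (exact permutation test across the 3 genotypes, p = 0.025). Relative to the genome's mean window it was −2.30 points and the call was lost. On the left, homozygous minus wild type was then −2.67 points. There the 3 genotypes passed (exact permutation test, p = 0.0214), with heterozygous the lowest mean at 38.6%. Over the 7 sources the left did not pass (exact permutation test, p = 0.4). The count of 13 windows was 7 with 500 kb windows, 7 in the 100000 strongest rows and 7 with a −log10 q of at least 2, and 14 to 22 without 1 library. The count of 4 strong regions was 0 in the 20000 and 7 in the 100000 strongest rows, 16 in the full lists, 0 if the other genotype's full lists may hold no row, and 5 to 9 without 1 library. The share of regions in repeated sequence, 71.1%, was 57.9% to 92.1% under 4 other limits chosen after seeing the data. Same-numbered libraries did not deviate together (correlations from −0.506 to 0.308, 2 of 9 above 0.1). The replicate block left the difference on the right at −6.45 points. Across the 3 genotypes its p was 0.0278 (exact permutation test over 36 assignments). The replicate block changed no call among the 4 density and length results. It ended the calls from 26.75 to 27.75 Mb (p = 0.0556), from 25 to 26.75 Mb (p = 0.111) and in windows without a coding start (p = 0.0556), and from 27.75 to 31.75 Mb its p was 0.0278 (exact permutation tests). Its p was 0.472 for the residual density of −1.42 points, 0.25 on the left at −14.8 points and 0.0556 for the run length of 0.75 Mb. In the block, 19 windows had homozygous on 1 side of wild type in all 3 pairs. The read depth is unknown, so a lack of rows limits no level.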
